A study of Mus musculus with 4 samples.

Results

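The unfolded protein response and the heat shock response were followed through 38 named genes in mouse Her2-positive breast cancer cells labelled Pak1-/- or Pak1+/+, Pak1 being a kinase. The 38 members were chosen by name: 13 chaperones and folding enzymes of the endoplasmic reticulum (ER), 3 genes of ER-associated degradation, 5 ER stress sensors and transcription factors, 5 outputs of the PERK-ATF4 branch, 10 genes of the cytosolic heat shock response and the 2 subunits of the mitochondrial chaperonin. A probe carried the name of 37 of the 38, out of 31829 gene names on the array, and each gene was read from its brightest probe. Hspa1b had no probe of its own name. The Hspa1a probe lists transcripts of both Hspa1a and Hspa1b, so this near-identical pair of inducible Hsp70 genes cannot be told apart. All 37 probes were well above background on all 4 arrays, none was saturated, and all 37 were among the 21957 genes tested.

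Total RNA of 4 samples was hybridised to a one-colour (Cy3) Agilent mouse array, 2 labelled Pak1-/- and 2 labelled Pak1+/+. All were tumour-derived cells of the MMTV-Neu strain, whose Neu oncogene (Her2, gene Erbb2) is under the mouse mammary tumour virus promoter, and the series design describes 2 tumours per group. Every sample, controls included, was grown in low-calcium medium with horse serum, serum starved for 3 h and given EGF for 15 min, so no sample without EGF and none with an added ER stressor or heat shock was compared. Cells grown out of 2 tumours a group limit the comparison: tumour and genotype vary together, and the p-values measure the spread between these samples only.

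The Pak1 probe was not lower on the arrays labelled Pak1-/-. It read 12.21 and 12.25 on the log2 scale on the arrays labelled Pak1-/-, against 12.04 on both arrays labelled Pak1+/+, a difference of 0.19 ± 0.07 (SE, n = 2 per group, limma adjusted p = 0.070). The Erbb2 probe read 11.91 and 11.95 against 12.26 and 12.21, a difference of -0.31 (adjusted p = 0.0201). Where the deletion lies relative to the Pak1 probe is not given in the sources used here, so every direction below rests on the labels. The 4 arrays shared 1 slide and 1 scan, with median spot intensities of 322.2 to 331.1 against local backgrounds of 39 to 42, and 62.2% to 70.4% of 39429 probes were well above background. The arrays labelled Pak1-/- lay at positions 1 and 2 and the others at 3 and 4, so position and genotype cannot be told apart. Of the luminal epithelial markers, Krt8, Krt18, Epcam, Cdh1 and Cldn7 were well above background on all 4 arrays, and Krt19 on 3 of them. Of these, Cdh1 (1.19), Krt8 (0.57) and Krt18 (0.27) were higher on the arrays labelled Pak1-/-, by log2 difference, while Epcam (-0.23), Krt19 (-0.64) and Cldn7 (-0.0047) did not pass. Epcam and Krt19 lay below on the arrays labelled Pak1-/- without overlap. The mean log2 intensity over the 3 basal markers was 12.73 to 12.86 on the arrays labelled Pak1-/- and 11.52 to 11.57 on the others. All 3 were higher: Krt14 by 2.83 on the log2 scale, Krt5 by 0.50 and Trp63 by 0.43. The gap in the mean was therefore mostly that of Krt14. Of 6 fibroblast markers 3 were tested: Col1a1 was higher (1.12), Col1a2 (0.03) and Pdgfra (-0.16) did not pass, and Col3a1, Dcn and Lum were at background on all 4 arrays. Of 6 leukocyte markers 4 were tested, all well above background on the 4 arrays: Ptprc was lower (-0.45), Cd3e (0.25), Cd68 (-0.20) and Csf1r (0.12) did not pass, and Cd79a and Lyz2 were too dim to test.

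Cells answer unfolded protein in each compartment with its own program. In the ER, the sensors IRE1 (Ern1), PERK (Eif2ak3) and ATF6 are held by the chaperone BiP (Hspa5) and are released when unfolded protein accumulates. IRE1 splices the Xbp1 message, ATF6 is cut to release a transcription factor, and PERK phosphorylates eIF2α, which slows translation while favouring that of Atf4. In the cytosol, heat shock factor 1 (Hsf1) trimerises and switches on small heat shock proteins, Hsp70s and their co-chaperones, and mitochondria have their own chaperonin of Hsp60 and Hsp10. Secretory and tumour cells are known to lean on both programs. An array reads the messages, not splicing, cleavage or phosphorylation, and in bulk cells fewer cells of a type and less RNA per cell cannot be told apart.

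These programs act through short promoter motifs, and the stretches that carry them are shown because the differences of the members are set against them. RefSeq promoter windows (build GRCm38.p6, 250 bases before to 50 after the start) were found for 34 of the 38 members and 27025 genes in all. The ER stress element, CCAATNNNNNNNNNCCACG on either strand, the site known to bind ATF6 with NF-Y, stood in 7 of the 34 windows (20.6%) and in 37 of all 27025 (0.137%). The 7 members were Hspa5, Hsp90b1, Calr, Canx, Pdia6, Dnajc3 and Creld2, and Hsp90b1 held a pair of sites. The members were chosen by name as genes of these responses. The contrast with all windows is therefore no test, here or for the motifs below. In the lines below each sequence is read 5′ to 3′ on the strand of the gene, and capitals mark the defined letters of the element (a match on the opposite strand begins with its CGTGG end).
Hspa5, chr2:34772017-34772051, plus strand: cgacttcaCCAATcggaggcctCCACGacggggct
Hsp90b1, first site, chr10:86705630-86705664, minus strand: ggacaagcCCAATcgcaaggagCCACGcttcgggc
Hsp90b1, second site, chr10:86705525-86705559, minus strand: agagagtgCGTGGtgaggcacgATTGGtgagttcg
Calr, chr8:84847067-84847101, minus strand: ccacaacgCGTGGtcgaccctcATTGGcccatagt
Canx, chr11:50325792-50325826, minus strand: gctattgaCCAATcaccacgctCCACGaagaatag
Pdia6, chr12:17266483-17266517, plus strand: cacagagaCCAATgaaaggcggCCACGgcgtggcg
Dnajc3, chr14:118937819-118937853, plus strand: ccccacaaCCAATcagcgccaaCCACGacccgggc
Creld2, chr15:88819512-88819546, plus strand: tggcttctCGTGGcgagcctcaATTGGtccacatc

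The amino acid response element core, TGATGNAA on either strand, is a site for ATF4. It stood in 4 of the 34 windows (11.8%), those of Herpud1, Trib3, Chac1 and Asns, and in 4.51% of all windows. The 3 matches that lie before the start are given with the core in capitals.
Herpud1, chr8:94386309-94386332, plus strand: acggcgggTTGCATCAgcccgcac
Chac1, chr2:119351041-119351064, plus strand: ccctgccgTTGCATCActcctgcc
Asns, chr6:7693217-7693240, minus strand: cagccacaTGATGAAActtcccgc

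The heat shock element of 3 alternating units, GAANNTTCNNGAA or TTCNNGAANNTTC, stood in 3 of the 34 windows (8.82%), those of Hsph1, Hspd1 and Hspe1, and in 0.662% of all windows. Hspd1 and Hspe1 stand head to head, and both windows hold the same stretch of 34 bases, in which the 2 phases of the element overlap into one longer run. It is given for each gene on its own strand, with the run in capitals.
Hspd1, chr1:55088051-55088084, minus strand: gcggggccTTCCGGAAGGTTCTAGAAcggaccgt
Hspe1, chr1:55088051-55088084, plus strand: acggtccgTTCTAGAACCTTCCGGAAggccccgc
The unfolded protein response element core, TGACGTGG, which shares its CGTGG letters with the reverse of the ER stress element, stood in 0 of the 34 windows and in 0.714% of all windows. A match is a run of letters only, and a window without one shows no more than that these letters were not in it.

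**Figure D1:**
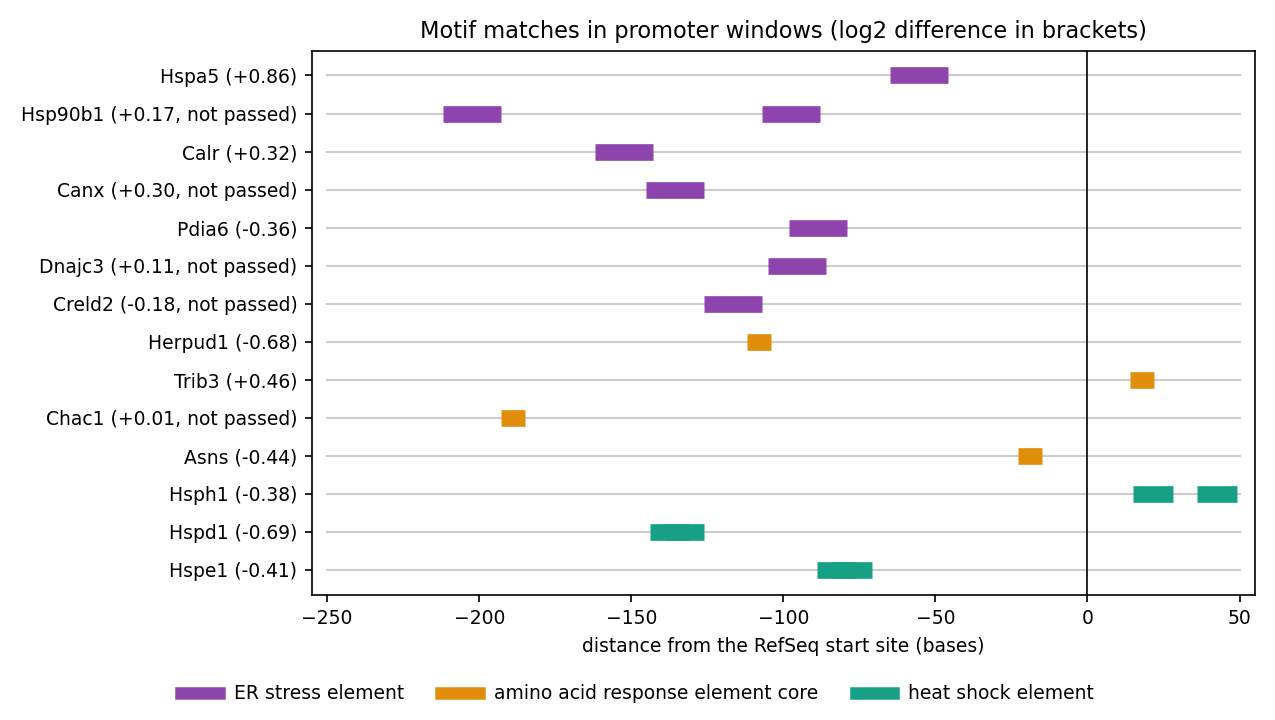
Position of each motif match relative to the RefSeq start site (0, in bases) in the promoter windows of the 14 members that hold one, with each gene's log2 difference (arrays labelled Pak1-/- minus arrays labelled Pak1+/+) in brackets. Hsph1 has 2 annotated starts, so its 1 site is drawn at 2 distances, and the ER stress elements of 7 members all lie before the start.

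Both directions were found among the members. Of 37 tested, 12 were higher and 10 lower on the arrays labelled Pak1-/- at an adjusted p under 0.05 (limma, adjusted over all probes tested), and 15 did not pass. That is 59.5% called, beside 51.1% of all genes tested by their brightest probe (22.8% higher and 28.3% lower) and 52% of all probes. The groups did not overlap for 30 members (17 higher, 13 lower), 81.1% beside 77.6% of all genes. At least a 2-fold change with the same adjusted p was reached by 1 member, Ppp1r15a, where 12.6% of all genes reached it. The median difference of the members was 0.03 on the log2 scale (all genes, -0.05) and their median absolute difference 0.38 (all genes, 0.32). The shares called and not overlapping lie near those of all genes and are no result about the members. The 2-fold count lies below the share of all genes, a description with no test, and the account below is of single genes. The count of lower members was 5 in place of 10 without the second array labelled Pak1+/+.

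Spread between the samples of a group was smaller than most of these differences. The 2 arrays labelled Pak1-/- differed by a median of 0.12 over the members and the 2 labelled Pak1+/+ by 0.06, on the log2 scale. The largest gaps within a group were 0.52 for Hspa1a on the arrays labelled Pak1-/- and 0.34 for Ern1 on those labelled Pak1+/+. In 14 other ways of processing the arrays or leaving 1 out, 8 of the 12 higher members and 5 of the 10 lower members kept their call every time.

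**Figure D2:**
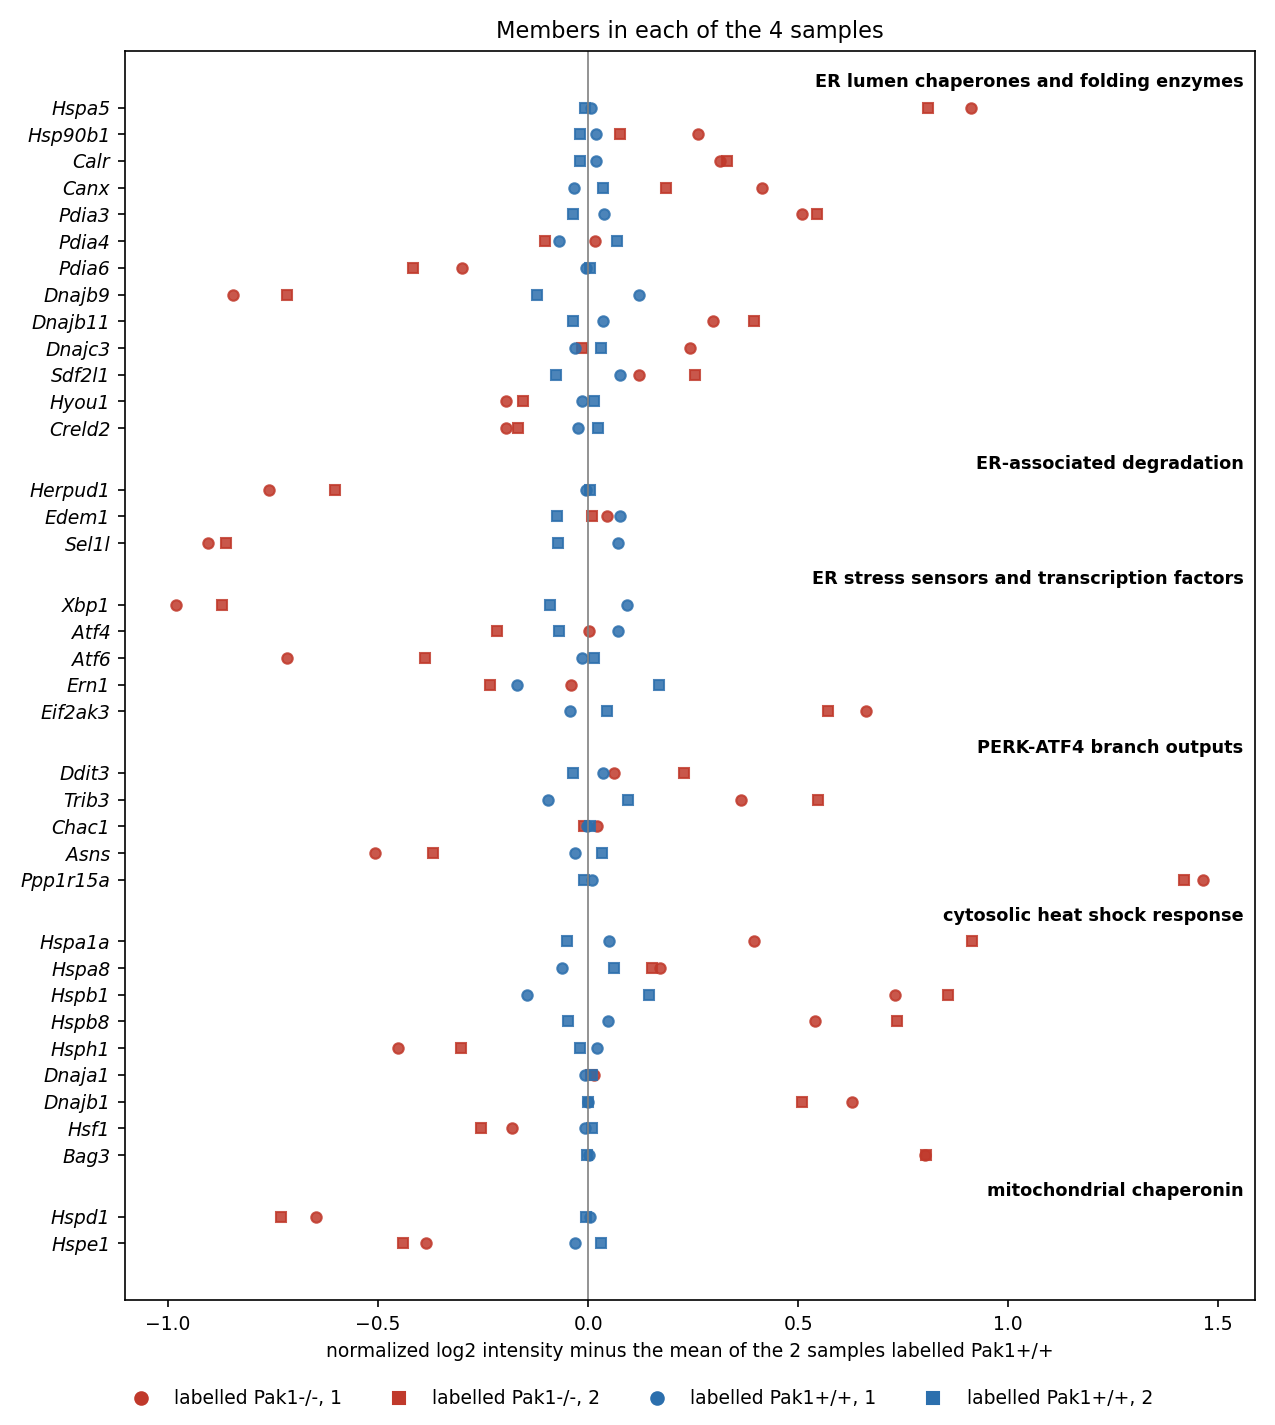
Normalized log2 intensity of each of the 37 members on each of the 4 arrays, minus the mean of the 2 arrays labelled Pak1+/+, grouped by branch (circles, replicate 1; squares, replicate 2). Ppp1r15a stands farthest to the right with both arrays labelled Pak1-/- over 1.4 above the others' mean, while Xbp1 and Sel1l lie farthest to the left.

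Among the chaperones of the ER lumen, Hspa5, Calr, Pdia3 and Dnajb11 were higher, while Dnajb9 and Pdia6 were lower. Of the 13 genes, 4 were higher, 2 lower and 7 did not pass, so 46.2% were called beside 51.1% of all genes (22.8% higher, 28.3% lower), with a median difference of 0.17 on the log2 scale. Hspa5 encodes BiP, the Hsp70 of the ER and the clamp on its stress sensors. It read 17.97 and 17.87 on the arrays labelled Pak1-/-, against 17.07 and 17.06 on those labelled Pak1+/+. The groups stood well apart, with a rise of 0.86 ± 0.07 on the log2 scale (SE, n = 2 per group; 1.82-fold, 95% interval 0.66 to 1.06, limma adjusted p = 0.00125). With arrays scaled to their 75th percentile the rise was smaller, 0.54 by processed and 0.58 by normexp intensities, and still passed (adjusted p = 0.00860 and 0.00295). Its probe lies on chromosome 2 at 34631913 to 34631972 of mm9, the build of the array design. Dnajb9 (ERdj4), a co-chaperone of BiP that passes misfolded proteins to degradation and holds BiP on IRE1, went the other way. It read 12.00 and 12.12 on the arrays labelled Pak1-/-, against 12.96 and 12.72 on the others, a fall of 1.72-fold (log2 difference -0.78 ± 0.11, adjusted p = 0.00504), and a dimmer probe of the gene also fell (-0.69).

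Calreticulin (Calr) and calnexin (Canx) retain newly made glycoproteins in the ER until they fold, and Pdia3 (ERp57) is the disulfide isomerase that works with them. Pdia3 read 15.72 and 15.76 on the arrays labelled Pak1-/-, against 15.25 and 15.18 on the others, a rise of 1.44-fold (0.53 ± 0.07 on the log2 scale, adjusted p = 0.00426). Calr read 16.24 and 16.26 against 15.95 and 15.91, a rise of 0.32 ± 0.07 (adjusted p = 0.0161). Canx read 16.08 and 15.86 against 15.64 and 15.70, and its difference of 0.30 did not pass (adjusted p = 0.0646), although the groups did not overlap. The call on Calr was the least firm of these: it was lost without the second array labelled Pak1-/- (adjusted p = 0.0509) and without the first or second labelled Pak1+/+ (0.0712 and 0.0939). With each array scaled to its 75th percentile Calr read 0.17 by either intensity, with adjusted p of 0.140 and 0.137. Canx passed without the second array labelled Pak1-/- (0.41, adjusted p = 0.0337), with cyclic loess (0.0387) and with quantile-normalized processed intensities (0.0496).

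Of the other 2 disulfide isomerases among the members, Pdia6 was lower and Pdia4 did not pass. Pdia6, known to act with BiP, read 16.39 and 16.27 on the arrays labelled Pak1-/-, against 16.68 and 16.69 on the others, a fall of 0.36 on the log2 scale (adjusted p = 0.0171). A dimmer Pdia6 probe fell further, by 0.84, and the mean over both probes was -0.60. With arrays scaled to their 75th percentile the brighter probe gave -0.57 by processed and -0.56 by normexp intensities. Pdia4 (ERp72) read 12.76 and 12.64 against 12.68 and 12.81, so its groups overlapped. Pdia6 lost its call without the second array labelled Pak1-/- (adjusted p = 0.0527) and without the first or second labelled Pak1+/+ (0.0745 and 0.0805).

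Of the remaining genes of the ER lumen, only Dnajb11 passed. Dnajb11 (ERdj3), a co-chaperone that hands substrates to BiP, read 14.50 and 14.60 on the arrays labelled Pak1-/-, against 14.24 and 14.17 on the others, a rise of 0.35 (adjusted p = 0.0193). It lost its call without the second array labelled Pak1-/- (0.0655), without either array labelled Pak1+/+ (0.0621 and 0.102), and with processed intensities scaled to the 75th percentile (0.0682). A second Dnajb11 probe was at background on all 4 arrays. Dnajc3 (p58IPK), a BiP co-chaperone also known to restrain PERK, read 11.74 and 11.49 against 11.47 and 11.53, so the groups overlapped. Sdf2l1, which joins ER co-chaperone complexes, read 11.75 and 11.88 against 11.70 and 11.55 (adjusted p = 0.160). Hsp90b1 (GRP94), the Hsp90 of the ER, read 17.33 and 17.14 against 17.08 and 17.05 (adjusted p = 0.184). Neither passed, although their groups did not overlap. Hyou1 (GRP170), an exchange factor for BiP, read 10.003 and 10.04 against 10.19 and 10.21 (adjusted p = 0.0892). Creld2, an ER stress-induced gene, read 14.87 and 14.90 against 15.05 and 15.09 (adjusted p = 0.0844). Both were below on the arrays labelled Pak1-/- by about the same small amount, -0.18 on the log2 scale, and did not pass.

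The 7 members with the ER stress element printed above were split. Hspa5 and Calr were higher, Pdia6 was lower, and Hsp90b1, Canx, Dnajc3 and Creld2 did not pass. Members with the same letters near their start were thus called in different directions on these arrays. The calls on Calr and Pdia6 were lost in some alternatives, and only that on Hspa5 held in each of the 14.

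Genes of ER-associated degradation, which draws misfolded proteins out of the ER for the proteasome, were lower in 2 of 3 cases (median -0.68 on the log2 scale), where 28.3% of all genes were lower, and 3 genes are too few to read a share from. Sel1l, the adaptor of the Hrd1 ubiquitin ligase, read 12.38 and 12.43 on the arrays labelled Pak1-/-, against 13.36 and 13.22 on the others. The groups lay far apart, a fall of 1.84-fold (-0.88 ± 0.08, 95% interval -1.10 to -0.67, adjusted p = 0.00152), and the probe lies on chromosome 12 at 93044963 to 93045022 of mm9. Herpud1, an ER membrane protein that assembles with the same ligase, read 13.75 and 13.90 against 14.50 and 14.51, a fall of 1.60-fold (-0.68 ± 0.08, adjusted p = 0.00326). Edem1, which marks misfolded glycoproteins by trimming mannose, read 13.17 and 13.13 against 13.20 and 13.05, with the groups overlapping (adjusted p = 0.805).

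The sensors and transcription factors of the ER response differed among themselves: Xbp1 and Atf6 were lower, the PERK gene Eif2ak3 was higher, and Ern1 and Atf4 did not pass (median of the 5, -0.14 on the log2 scale). Here too 60% were called, near the 51.1% of all genes. Xbp1 read 14.82 and 14.92 on the arrays labelled Pak1-/-, against 15.89 and 15.70 on the others. This was the largest fall among the members, 1.90-fold (-0.93 ± 0.10, 95% interval -1.18 to -0.67, adjusted p = 0.00200), from a probe on chromosome 11 at 5425816 to 5425875 of mm9, and a single probe does not tell spliced from unspliced Xbp1. Eif2ak3 read 12.50 and 12.41 against 11.79 and 11.88, a rise of 1.53-fold (0.62 ± 0.08, adjusted p = 0.00352). Its groups did not overlap, and the call held in each of the 14 alternatives, as did that of Xbp1.

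Atf6 read 9.87 and 10.20 on the arrays labelled Pak1-/-, against 10.57 and 10.60 on the others, a fall of 0.55 ± 0.13 on the log2 scale (adjusted p = 0.0211). The 2 arrays labelled Pak1-/- were themselves apart by more than those labelled Pak1+/+, and the call was lost without the first or the second array labelled Pak1+/+ (adjusted p = 0.0627 and 0.0712). Ern1 (IRE1) read 10.89 and 10.70 against 10.76 and 11.10, with the groups overlapping (adjusted p = 0.464). Atf4, the transcription factor made when eIF2α is phosphorylated, read 16.46 and 16.24 against 16.53 and 16.39, again overlapping (-0.11, adjusted p = 0.453). The dimmer of the 2 Atf4 probes fell by 0.41 (adjusted p = 0.0106), so its probes disagreed on whether the gene passed. The mean over both probes was -0.26 (adjusted p = 0.0498), and processed intensities scaled to the 75th percentile gave -0.34 for the brighter probe (adjusted p = 0.0367).

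Of 5 genes that act downstream of PERK and ATF4, 2 were higher, 1 was lower and 2 did not pass, with a median of 0.15 on the log2 scale. The 60% called is near the 51.1% of all genes (22.8% higher, 28.3% lower). Ppp1r15a (GADD34) brings a phosphatase to eIF2α and so ends the translation block. It read 14.17 and 14.12 on the arrays labelled Pak1-/-, against 12.71 and 12.69 on the others. The rise of 2.72-fold (1.44 ± 0.07, 95% interval 1.26 to 1.62, adjusted p = 0.000278) was the largest change of any member and held in each of the 14 alternatives, from a probe on chromosome 7 at 52778320 to 52778379 of mm9. Trib3, a pseudokinase that binds ATF4 and AKT, read 13.73 and 13.92 against 13.27 and 13.46, a rise of 0.46 ± 0.11 (adjusted p = 0.0242). That call was lost without the second array labelled Pak1-/- (0.0940) or the first labelled Pak1+/+ (0.0979).

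Asns, which makes asparagine, went the other way from Trib3. It read 14.39 and 14.53 on the arrays labelled Pak1-/-, against 14.87 and 14.93 on the others, a fall of 0.44 ± 0.08 on the log2 scale (adjusted p = 0.0117; 0.0615 without the second array labelled Pak1+/+). Ddit3 (CHOP), the transcription factor tied to death under lasting ER stress, read 10.77 and 10.94 against 10.75 and 10.68 and did not pass (0.15, adjusted p = 0.235). Chac1, which degrades glutathione, read 12.13 and 12.10 against 12.11 on both arrays labelled Pak1+/+. Its difference of 0.01 (95% interval -0.17 to 0.18) was among the smallest of the members. Of the 4 members with the amino acid response core, Herpud1 and Asns were therefore lower, Trib3 higher and Chac1 not passed.

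In the cytosol, the small heat shock protein genes Hspb1 and Hspb8, the inducible Hsp70 pair and the co-chaperones Bag3 and Dnajb1 were higher, while the Hsp110 gene Hsph1 was lower. Of 9 genes tested, 5 were higher, 1 lower and 3 did not pass, with a median of 0.57 on the log2 scale. The 66.7% called stands beside 51.1% of all genes (22.8% higher, 28.3% lower), and nothing is read from it for 9 genes. Bag3, a co-chaperone that couples Hsp70 and small heat shock proteins to autophagy, read 14.28 on both arrays labelled Pak1-/-, against 13.48 on both others. This rise of 1.74-fold (0.80 ± 0.07, adjusted p = 0.00111) held in each of the 14 alternatives, and its probe lies on chromosome 7 at 135690281 to 135690340 of mm9. Hspb8 (HSP22), the small heat shock protein that binds BAG3, read 12.76 and 12.96 against 12.27 and 12.17, a rise of 1.56-fold (0.64 ± 0.10, adjusted p = 0.00616). Hspb1 (HSP25 in mouse), an abundant small heat shock protein that also modulates actin, read 15.47 and 15.60 against 14.59 and 14.89, a rise of 1.73-fold (0.79 ± 0.12, adjusted p = 0.00649). Partners in one known complex, Bag3 and Hspb8 thus both rose. The basal epithelial marker Krt14 rose by 2.83 on the log2 scale. It read 15.93 and 15.89 on the arrays labelled Pak1-/-, against 13.05 and 13.10 on the others. The other basal markers, Krt5 (0.50) and Trp63 (0.43), rose less. The luminal list was mixed, with 3 of 6 markers higher and Epcam (-0.23), Krt19 (-0.64) and Cldn7 not passed, and the part of either marker list in the result was not tested.

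Dnajb1 (Hsp40), the J-domain partner of Hsp70, read 15.57 and 15.45 on the arrays labelled Pak1-/-, against 14.95 and 14.94 on the others, a rise of 1.48-fold (0.57 ± 0.08, adjusted p = 0.00424). The probe shared by Hspa1a and Hspa1b read 9.77 and 10.29 against 9.42 and 9.33, a rise of 0.65 ± 0.19 (adjusted p = 0.0391). It was the noisiest member: its arrays labelled Pak1-/- lay 0.52 apart, so that the difference was 0.40 without the second of them and 0.91 without the first, and its call was lost without the first or second array labelled Pak1+/+ (0.0805 and 0.114), with quantile-normalized processed intensities (0.0713), with no filter on dim probes (0.0668) and in the authors' table (0.0507). Hspa8, the constitutive Hsp70, read 18.60 and 18.58 against 18.37 and 18.49 and did not pass (0.16, adjusted p = 0.150). Its 3 probes disagreed in sign, with 0.08 and -0.23 for the dimmer ones, and its brightest probe turned to -0.16 and -0.12 when arrays were scaled to their 75th percentile. Dnaja1, another Hsp40, read 16.87 on both arrays labelled Pak1-/- and 16.85 and 16.87 on the others (adjusted p = 0.911), but its dimmer probe fell by 0.63 (adjusted p = 0.0266) and the mean over both was -0.31 (adjusted p = 0.0556). No direction is given for either gene.

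Hsph1 (Hsp110), an exchange factor for Hsp70, read 13.84 and 13.99 on the arrays labelled Pak1-/-, against 14.31 and 14.27 on the others, a fall of 0.38 ± 0.08 on the log2 scale (adjusted p = 0.0187). A dimmer Hsph1 probe fell by 0.40. The call was lost without the first array labelled Pak1-/- (0.0584) and without the first or second labelled Pak1+/+ (0.0865 and 0.0676). The regulator Hsf1 itself read 12.49 and 12.42 against 12.66 and 12.68 and did not pass (-0.22, adjusted p = 0.0572), although it passed when probes had to be well above background on all 4 arrays (0.0478).

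Both subunits of the mitochondrial chaperonin were lower, as were 28.3% of all genes. Hspd1 (Hsp60), the barrel in which proteins fold, read 15.31 and 15.23 on the arrays labelled Pak1-/-, against 15.97 and 15.96 on the others, a fall of 1.61-fold (-0.69 ± 0.07, adjusted p = 0.00200). Hspe1 (Hsp10), its lid, read 15.03 and 14.98 against 15.39 and 15.45, a fall of 1.33-fold (-0.41 ± 0.07, adjusted p = 0.00892; 0.0562 without the second array labelled Pak1+/+). All 3 Hspe1 probes fell, the dimmer ones by 0.68 and 0.39. The 2 genes share the promoter stretch printed above, and with Hsph1 they are the 3 members whose windows hold the heat shock element: all 3 were lower, where 28.3% of all genes were. Since 2 of the 3 share one stretch and the calls on Hsph1 and Hspe1 are lost without single arrays, nothing is read from this count. The Hspd1 probe also lists 3 predicted transcripts and the Hspe1 probe 2, so signal from copies of these genes cannot be told apart.

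**Figure D3:**
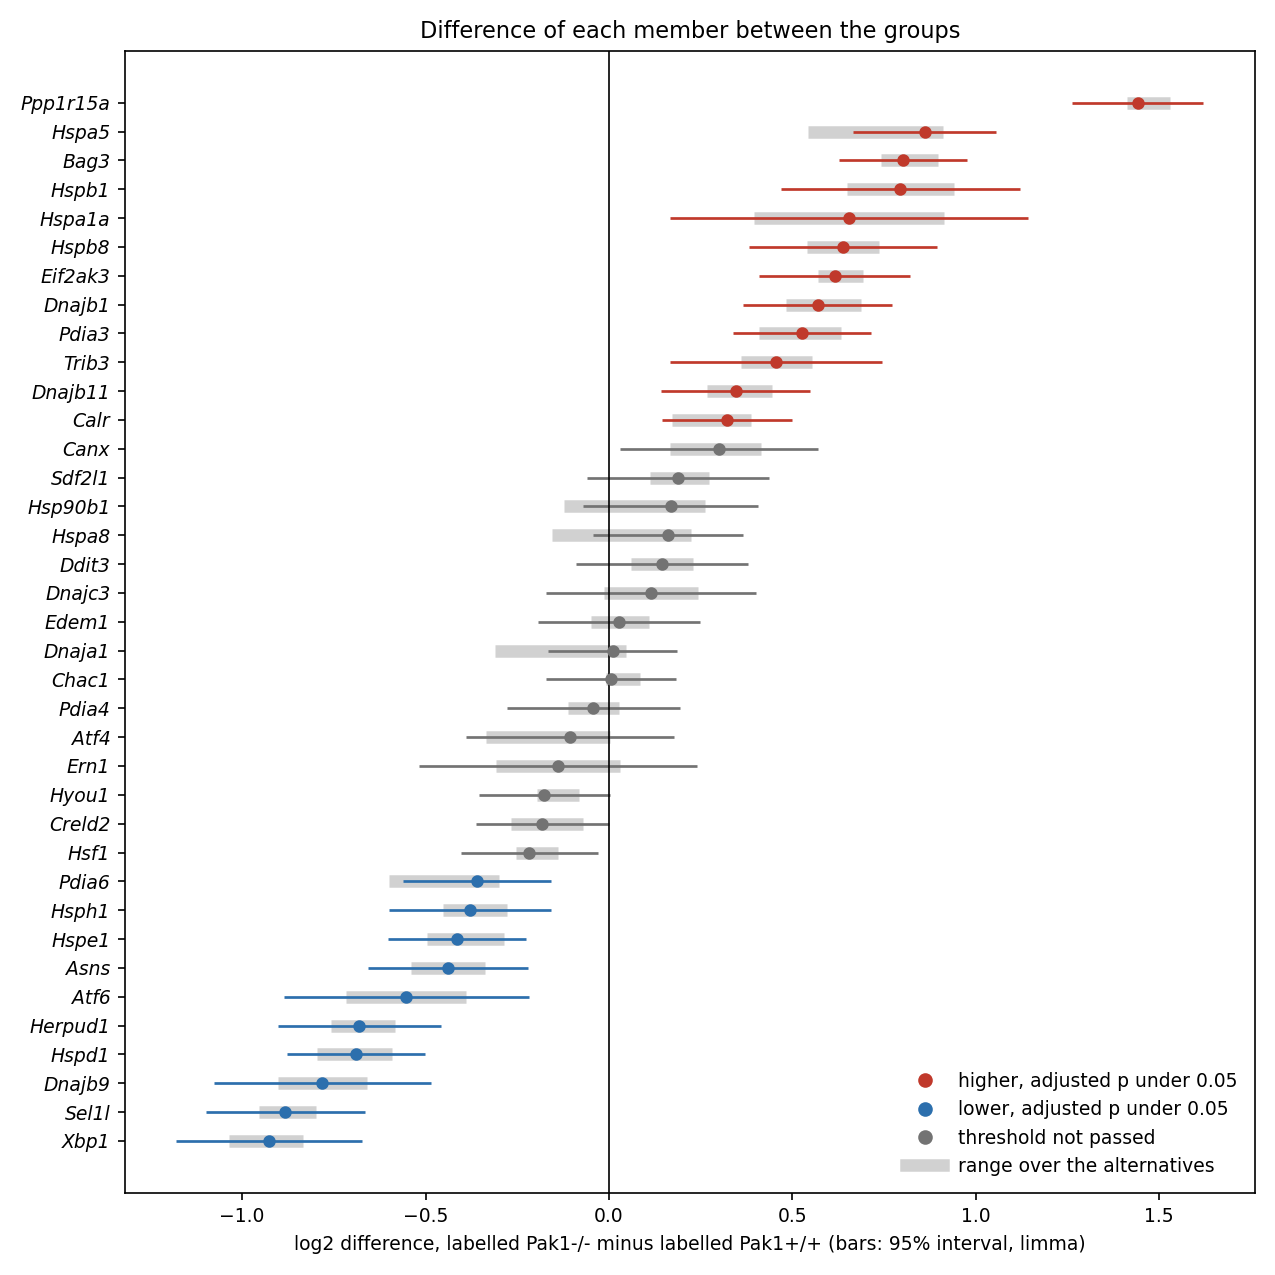
Log2 difference (arrays labelled Pak1-/- minus arrays labelled Pak1+/+) of each of the 37 members, ordered by size, with the 95% interval of the limma fit (thin bars) and the range over 14 alternatives (grey; 13 for Creld2, which had no value in the authors' table). The 12 higher members (red) run from 0.32 for Calr to 1.44 for Ppp1r15a and the 10 lower members (blue) from -0.36 for Pdia6 to -0.93 for Xbp1.

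The rest of each pathway was read from 3 lists of related genes that are not members. Of 41 further ER chaperone, translocation and degradation genes tested, 16 were higher, 8 lower and 17 did not pass (median 0.13 on the log2 scale). The 58.5% called stands beside 51.1% of all genes (22.8% higher, 28.3% lower). With cyclic loess the split was 20 higher and 6 lower, and the count of lower genes was 5 without the first array labelled Pak1-/- or the second labelled Pak1+/+. Past the threshold, the 6 with the largest changes were Creb3l2 (1.91), Pdia5 (1.80), Fkbp7 (1.69), Fkbp14 (1.68), Sec24d (1.36) and Fkbp2 (-1.15). Creb3l2 is a membrane-bound transcription factor of the secretory pathway, Fkbp7 and Fkbp14 are prolyl isomerases, and Sec24d is a COPII coat gene. Pdia5 read 10.33 and 10.49 on the arrays labelled Pak1-/-, against 8.68 and 8.54 on the others. The fibroblast marker Col1a1 (1.12) was higher as well, while Col1a2 (0.03) and Pdgfra (-0.16) did not pass and Col3a1, Dcn and Lum were at background. The part of Col1a1 in the result was not tested.

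Genes of the integrated stress response, the wider program that PERK shares with other eIF2α kinases, were called in both directions: of 40 tested, 8 were higher, 20 lower and 12 did not pass (median -0.26 on the log2 scale; 70% called). Over all genes, 22.8% were higher, 28.3% lower and 51.1% called. More genes were lower than higher there too, but the lean was larger in this list, a description with no test. Higher were Stc2 (2.48), a secreted glycoprotein, Nupr1 (2.47), a stress-induced chromatin protein, Eif2ak2 (2.42), the eIF2α kinase PKR, and Atf3 (1.20), a transcription factor. Lower were Phgdh (-2.15), the first enzyme of serine synthesis, and Slc7a5 (-1.54), the leucine transporter. Stc2 read 12.78 and 12.76 on the arrays labelled Pak1-/-, against 10.24 and 10.33 on the others. Phgdh read 13.35 and 13.57 against 15.65 and 15.58, so both genes separated the groups by more than any member. Atf3 lost its call without the first array labelled Pak1-/- (1.09, adjusted p = 0.0581).

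The members' own enzyme of amino acid supply, Asns, was lower as well, and further genes of serine and one-carbon metabolism, singled out after their values were seen, were Psat1 (-1.17), Shmt2 (-0.90), Mthfd2 (-0.79) and Psph (-0.62), all called lower. Sesn2 (1.18) and Ddit4 (0.92), which restrain mTORC1, were also singled out after their values were seen and were called higher. The list therefore held called genes in both directions, as the PERK-ATF4 members did. More of the list were lower, while of those members 2 were higher and 1 lower.

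Of 48 further cytosolic and mitochondrial chaperones and quality-control genes tested, 12 were higher, 19 lower and 17 did not pass (median -0.16 on the log2 scale). The 64.6% called stands beside 51.1% of all genes (22.8% higher, 28.3% lower). The higher count was 7 without the first array labelled Pak1+/+. Of the 3 small heat shock protein genes in the list, Hspb2 (2.02) and Cryab (1.63) were higher and Hspb6 was lower (-0.31, limma adjusted p = 0.0339). Hspb6 was in the list from the start but was singled out here after its value was seen. Hspb6 lost its call without the second array labelled Pak1-/- (0.0970), without the first or second labelled Pak1+/+ (0.147 and 0.0940), with cyclic loess (0.0654) and with no filter on dim probes (0.0594). Serpinh1 (1.72), the collagen chaperone Hsp47, which was put in this list although it works in the ER, and the Hsp40 gene Dnajb4 (1.38) were higher. Cryab read 16.27 and 16.28 on the arrays labelled Pak1-/-, against 14.57 and 14.72 on the others. Hspa9 (-0.98), the mitochondrial Hsp70 mortalin, was lower, as Hspd1 and Hspe1 were, but not every mitochondrial gene of the list passed. Fkbp4 (-0.97), an Hsp90 co-chaperone, was lower too. Of the 8 subunits of the cytosolic chaperonin CCT, singled out after their values were seen, 6 were lower and 0 higher by limma, a count on genes picked for their values that is given as a description only. That count was 3 without the first or the second array labelled Pak1+/+.

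**Figure D4:**
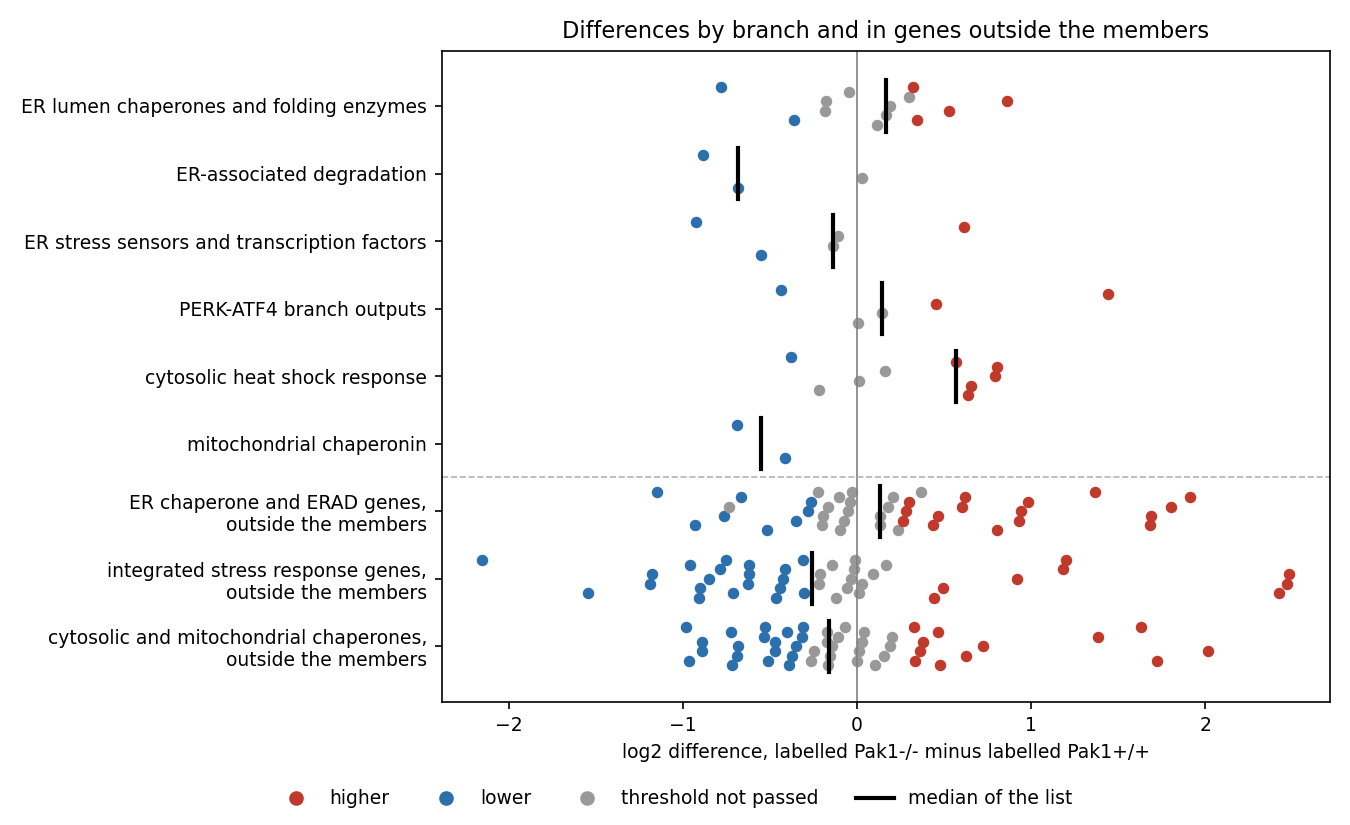
Log2 difference (arrays labelled Pak1-/- minus arrays labelled Pak1+/+) of every tested gene in the 6 branches of members (above the dashed line) and in 3 lists of related genes outside the members (below it), with the median of each as a bar. Medians run from -0.68 for ER-associated degradation to 0.57 for the cytosolic heat shock members, and higher (red) and lower (blue) genes stand side by side in all but the 2 smallest branches.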

How the data were processed

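The deposited scanner files held linear spot intensities that Agilent Feature Extraction 9.5.3.1 had written per array, with no normalization across arrays. A log2 table deposited by the authors, background corrected and quantile normalized by their methods, served as an alternative only. Here mean spot and median local background intensities were corrected with normexp (offset 50), control spots and outlier flags left out, arrays quantile normalized and spots of a probe averaged. Probes that 2 or more of the 4 arrays called well above background (27229) were kept, and 27215 with complete values were fitted with limma 3.58.1 (R 4.3.3, lmFit and eBayes, genotype as the only term), two-sided, Benjamini-Hochberg adjusted over all probes. With 2 samples per group an exact permutation test cannot go below 0.333, so the fit across all probes was the test. The number of arrays limits the precision.

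A gene was read from its brightest probe. All members were named with every value. Outside them, at most 6 called genes per list were named, by absolute difference. Further genes are marked in the text as chosen after their values were seen. Pak1 was named as a check of the genotype labels. Erbb2 was named too, but cannot check them, as all 4 samples were labelled Her2 positive. The members and lists were chosen with earlier results of these data known. Gene names are those of the array design and some are old. Alternatives changed the background correction, scaling, filter, probe rule, threshold, replicate block and samples.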

Additional observations from a re-analysis of the deposited data

How the results depend on the processing

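The counts of members called in each direction stayed within 1.5 times of 12 higher and 10 lower under every other background correction, scaling and filter run. A threshold of 0.01 left 6 lower, and a required 2-fold change left 1 higher and 0 lower. Leaving out 1 array gave 8 to 12 higher and 5 to 9 lower members, 5 to 6 lower genes in the outside ER list and 7 to 12 higher genes in the outside cytosolic and mitochondrial list. The members' median of 0.03 became -0.088 with processed intensities and -0.062 with normexp values scaled to the 75th percentile, 0.11 with cyclic loess, 0.081 in the authors' table and 0.0073 to 0.084 without 1 array. The sign turned only for members that had not passed. With processed intensities scaled to the 75th percentile Hsp90b1 was -0.12, Hspa8 -0.16 and Dnaja1 -0.22, and with normexp values so scaled they were -0.11, -0.12 and -0.23. Pdia4 was 0.029 with cyclic loess and Dnaja1 -0.31 as a mean over probes. Without 1 array, Dnajc3 ran from -0.014 to 0.24, Chac1 from -0.0089 to 0.021, Pdia4 from -0.11 to 0.026, Atf4 from -0.22 to 0.0030, Edem1 from -0.048 to 0.10 and Ern1 from -0.31 to 0.031. The cause of these shifts was not tested. Over the 37 members tested and the genes named from the lists outside them (marker genes and CCT subunits apart), 901 alternative values had the direction and the call of the reported one, in 69 the call was lost, in 6 it was gained and in 15 the sign changed. The replicate numbers did not pair the samples (correlation of the within-group differences over probes, -0.03). With the replicate block 12 members were higher and 10 lower, and the fit called 13202 probes in place of 14144. Where 1 array was left in a group, its spread was assumed equal to that of the other group.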
